A study of Mus musculus with 4 samples.

Results

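Kupffer cells (KCs), the resident macrophages of the liver sinusoids, are recognized in mouse single-cell data by a small set of surface and secreted proteins. The 8 genes described here are Clec4f, Cd207, Vsig4, Timd4, Cd5l, Marco, Folr2 and Adgre1. They were chosen by symbol as genes commonly used to mark KCs, and each matched 1 of the 33696 genes counted in the libraries. The question was which of them were read in the macrophages recovered here, which are also known from macrophages of the peritoneal cavity, and which were absent.

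Male C57BL/6J wild-type mice, 7 weeks old when feeding began, received the FPC diet, which combines trans-fat, palmitate and cholesterol with fructose, and their livers were sampled by image-guided fine-needle aspiration (FNA) followed by single-cell RNA sequencing (scRNA-seq). P-LC24 came from mice on 0.05% cholesterol for 24 weeks and P-HC24 from mice on 1.25% cholesterol for 24 weeks. I-LC32 mice stayed on 0.05% cholesterol until week 32, and I-HC32 mice had 1.25% until week 24 and 0.05% for the following 8 weeks. Libraries are called high- or low-cholesterol below by the diet of the first 24 weeks, although I-HC32 mice received 0.05% when sampled. All groups received the FPC diet, so no group on a standard diet was available for comparison, and the mice sampled at week 32 were those sampled at week 24. Each condition was 1 library pooled from 12 aspirates, 4 from each of 3 mice, of cells labelled non-parenchymal. With 1 library per condition there was no error between replicates, no condition could be tested against another, and intervals in parentheses are exact 95% intervals that cover counting error only.

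KCs settle in the liver before birth and renew in place, and CLEC4F, VSIG4 and TIM-4 are known as surface proteins of these established cells. Large peritoneal macrophages, which depend on the transcription factor GATA6, are known to share part of this surface repertoire. Monocytes that enter an emptied KC niche are known to acquire CLEC4F and VSIG4 first and TIM-4 late. Several of the genes therefore do not distinguish a liver macrophage from a peritoneal one, while CLEC4F is regarded as the most restricted of the set.

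The genes lie on 7 chromosomes of GRCm39, and Clec4f and Cd207 are the 1 pair of neighbours. Both encode C-type lectins. Clec4f spans chromosome 6 from 83621524 to 83633169 and Cd207 from 83648190 to 83654839, both on the minus strand, with 15020 bases and 0 annotated genes between them. Vsig4 lies on chromosome X from 95290807 to 95337044 on the minus strand, and Timd4 on chromosome 11 from 46701620 to 46735177 on the plus strand. Cd5l occupies chromosome 3 from 87265182 to 87278380 (plus strand), Marco chromosome 1 from 120402267 to 120432753 (minus strand), Folr2 chromosome 7 from 101489195 to 101506401 (minus strand) and Adgre1 chromosome 17 from 57665573 to 57790527 (plus strand). All are annotated as protein-coding.

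Promoters of 4 genes are shown because the results turn on them. Clec4f and Cd207 are the neighbours that were absent from the macrophage class. Vsig4 and Timd4 are the pair that differed most between libraries among the 4 genes with enough UMIs to be compared. Each promoter runs 5′ to 3′ on the strand of the gene. It goes from 250 bases before the start of the canonical transcript to 50 bases from it. On GRCm39 these are chr6:83633120-83633419, chr6:83654790-83655089, chrX:95336995-95337294 and chr11:46701370-46701669. Capitals mark GATAA, the core letters bound by GATA factors, and GAGGAA, core letters bound by PU.1, a factor of myeloid cells, searched on both strands (TTATC and TTCCTC on the other).
Clec4f: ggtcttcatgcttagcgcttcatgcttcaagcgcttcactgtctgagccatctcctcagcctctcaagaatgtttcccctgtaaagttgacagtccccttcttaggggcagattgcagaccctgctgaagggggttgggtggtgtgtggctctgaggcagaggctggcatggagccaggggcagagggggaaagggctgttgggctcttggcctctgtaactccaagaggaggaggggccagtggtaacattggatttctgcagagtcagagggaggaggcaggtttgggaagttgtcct
Cd207: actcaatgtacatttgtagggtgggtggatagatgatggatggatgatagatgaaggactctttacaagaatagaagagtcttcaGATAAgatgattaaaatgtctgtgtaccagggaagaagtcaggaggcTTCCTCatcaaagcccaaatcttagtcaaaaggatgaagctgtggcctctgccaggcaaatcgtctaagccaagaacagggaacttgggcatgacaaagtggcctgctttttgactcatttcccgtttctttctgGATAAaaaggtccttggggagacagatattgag
Vsig4: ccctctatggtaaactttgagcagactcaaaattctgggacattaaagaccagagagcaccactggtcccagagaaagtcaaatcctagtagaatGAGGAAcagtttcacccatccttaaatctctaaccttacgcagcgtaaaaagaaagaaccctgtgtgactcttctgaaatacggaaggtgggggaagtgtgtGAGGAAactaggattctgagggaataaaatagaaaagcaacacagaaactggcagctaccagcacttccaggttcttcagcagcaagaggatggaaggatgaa
Timd4: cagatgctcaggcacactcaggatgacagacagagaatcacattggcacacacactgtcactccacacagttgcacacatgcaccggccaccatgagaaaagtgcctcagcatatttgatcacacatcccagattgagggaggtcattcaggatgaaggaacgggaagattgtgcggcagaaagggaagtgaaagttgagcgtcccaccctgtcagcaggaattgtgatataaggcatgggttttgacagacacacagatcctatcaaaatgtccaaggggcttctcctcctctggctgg
The Cd207 window held 2 matches of GATAA and 1 of GAGGAA, the Vsig4 window 2 of GAGGAA, and the Clec4f and Timd4 windows none. Among the other members, Cd5l held 2 of GATAA and 1 of GAGGAA, Marco 1 of GAGGAA, Adgre1 3 of GAGGAA and Folr2 none. Such matches are common, since 24.5% of 21757 protein-coding promoters of the same length held GATAA and 27.5% held GAGGAA. A match describes the letters of a window and is not a binding site.

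The 4 libraries held 33198 barcodes called as cells, between 7035 and 9828 each, with 50941106 to 89257239 unique molecular identifiers (UMIs). After filters 25359 cells were kept, of which 24733 were immune cells, and between 17 and 41 barcode sequences were shared by any pair of libraries. Clusters were built without the 8 genes, so that a gene's level in a class is not what formed the class. One cluster was named by the peritoneal macrophage markers. It held 1214 cells in all, 43 from P-LC24 and 75 from I-LC32 against 464 from P-HC24 and 632 from I-HC32. Its 10 leading genes were Prg4, Ltbp1, Slpi, Alox15, Ptgis, Serpinb2, Pf4, Cxcl13, Tgfb2 and C4b. All 15 peritoneal macrophage markers were detected in it, 6 of them among those leading genes, and Gata6 had a UMI in 78.9% (76.5 to 81.2) of its cells. By these markers the cells are peritoneal macrophage-like. They are called the macrophage class, or macrophages, below, and macrophages in other clusters are not counted with them.

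The other myeloid classes were 589 monocyte-like cells and a cluster of 415 cells led by Retnla, Fcrls, Cd209a and Clec4b1, which held 5 of 10 dendritic cell markers and is called by its genes, the Retnla/Cd209a cluster. Of the 415 cells of that cluster, 101 had C1qa, a complement gene of macrophages, so macrophages of another type may lie there. Markers of other cell types in the macrophage class bear on every level given for it. All 7 B cell markers had a UMI in at least 10% of its cells in some library, with a summed level of 72.6 to 437 CPM (the UMIs of a gene scaled to an equal total of UMIs) by library and the highest value in I-LC32. The same limit was reached by 0 of 8 T cell markers, by 1 of 7 liver endothelial markers (Pecam1) and by 1 of 7 hepatocyte markers (Alb). Liver endothelial markers summed to 151 CPM in P-LC24 against 12.4 to 46.2 in the other libraries, with 102 UMIs of Stab2 in 6.98% of the cells of P-LC24. Of 11 monocyte markers, 8 reached the limit, and their sum of 6724 to 8468 CPM was mostly Fn1, which is also on the peritoneal list. Ly6c2, a marker of classical monocytes, stood at 28.0 CPM in P-HC24 against 3.63 in P-LC24, and at 30.3 in I-LC32 against 0.146 in I-HC32. Ccr2, the receptor of monocyte recruitment, stood at 16.3 and 23.5 CPM at week 24, and at 18.8 in I-LC32 against 1.32 in I-HC32. The part of other cells, or of their RNA, in the levels below was not tested.

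Clec4f and Cd207 were absent from the macrophage class. Clec4f, a lectin that binds glycans and is the most KC-restricted gene of the set, was at 0 UMIs throughout the 1214 cells, and by the limit of 3 counts up to 0.247% of cells could have had a UMI. Cd207 encodes langerin, the lectin of Birbeck granules in Langerhans cells, which mouse KCs also express, and it was at 0 there as well. For both genes the limit was 6.98% of the cells of P-LC24 and 4.00% of those of I-LC32, but 0.647% for P-HC24 and 0.475% for I-HC32, so only the 2 high-cholesterol libraries held enough macrophages for a limit under 1%. The median macrophage had 20763 to 27172 UMIs depending on the library, deeper than any other immune class.

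Vsig4, Timd4, Cd5l and Adgre1 were shared with these peritoneal macrophage-like cells. Of the UMIs of each gene in immune cells, the macrophage class held 96.7% (96.1 to 97.1) of Vsig4, 96.7% (96.2 to 97.2) of Timd4, 96.4% (96.1 to 96.6) of Cd5l and 87.9% (87.5 to 88.2) of Adgre1. Marco belonged here too by location, with 95.7% (93.0 to 97.6) of its 350 UMIs, while Folr2 did not, with 20.5% (16.1 to 25.5) of 307. Over all 8 genes the class held 65733 of 71664 UMIs in immune cells, or 91.7%. Its part was smaller in the low-cholesterol libraries, 64.8% in P-LC24 and 72.7% in I-LC32, than in P-HC24 (94.7%) and I-HC32 (95.5%), and these libraries also had fewer macrophages.

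**Figure D1:**
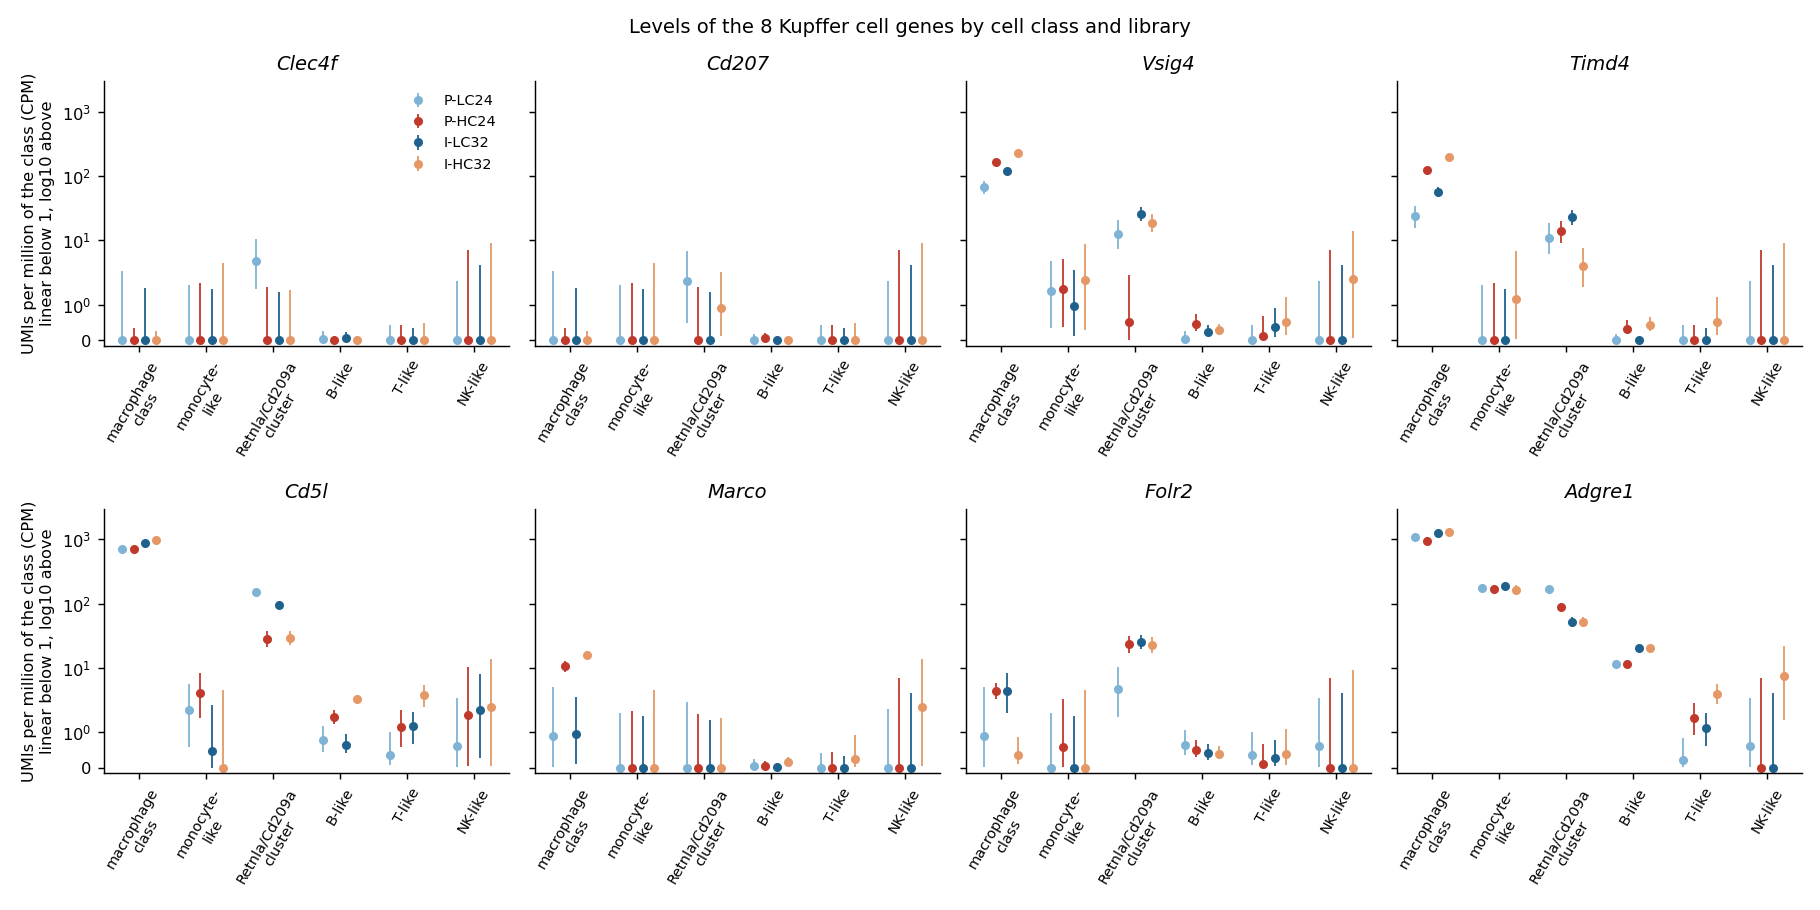
Level of each gene in a class (CPM, vertical axis, linear below 1 and log10 above) for 6 cell classes (horizontal axis), with 1 point per library and exact 95% intervals for counting error. Clec4f and Cd207 sit at 0 in the macrophage class of all 4 libraries, Cd5l and Adgre1 sit between 702 and 1307 CPM there, and Folr2 is highest in the Retnla/Cd209a cluster in each library.

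Of the lectins and receptors that macrophages use to take up particles, Vsig4 encodes a complement receptor of the immunoglobulin superfamily that binds C3b. In the macrophage class its level was higher in both libraries begun on high cholesterol than in both on low cholesterol throughout. It was read at 67.1 CPM in P-LC24 and 118 in I-LC32, and at 164 in P-HC24 and 228 in I-HC32. A UMI was present in 27.9% (15.3 to 43.7), 18.7% (10.6 to 29.3), 31.9% (27.7 to 36.4) and 32.0% (28.3 to 35.8) of the cells in that order, and these intervals overlap. Cells that had Vsig4 had it in number, 12.1 UMIs per positive cell in P-HC24 and 15.4 in I-HC32, with 6.17 in P-LC24 and 17.6 in I-LC32. Of the 1214 cells, 838 had none and 192 had 10 or more, with only 52 between 3 and 9, so most cells were either at 0 or well above it.

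Timd4 encodes TIM-4, a receptor for phosphatidylserine on dying cells and a mark of long-resident macrophages. Its level in the class was 23.6 CPM in P-LC24 and 57.3 in I-LC32, and 125 in P-HC24 and 201 in I-HC32, the same order of libraries as for Vsig4. The share of cells with a UMI followed that order, from 13.95% (5.30 to 27.9) in P-LC24 through 30.7% (20.5 to 42.4) in I-LC32 and 46.8% (42.2 to 51.4) in P-HC24 to 62.7% (58.8 to 66.4) in I-HC32. The intervals of I-HC32 and P-HC24 do not overlap each other, while those of P-HC24 and I-LC32 do. Positive cells held 4.33 UMIs on average in P-LC24, 5.17 in I-LC32, 6.26 in P-HC24 and 6.93 in I-HC32, so libraries differed more in how many cells had Timd4 than in how much a positive cell had. Timd4 RNA was read in 642 of the 1214 cells, of which 151 had 10 or more UMIs.

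Macrophages of the 4 libraries differed in depth, so each cell was thinned to 10000 UMIs, which left out 10 shallower cells of P-LC24, 4 of I-LC32, 17 of P-HC24 and 28 of I-HC32. In the same order, the share with Timd4 became 6.06% (0.743 to 20.2), 21.1% (12.3 to 32.4), 42.5% (37.9 to 47.2) and 58.8% (54.7 to 62.7). For Vsig4 it became 18.2% (6.98 to 35.5), 16.9% (9.05 to 27.7), 26.0% (21.9 to 30.3) and 27.3% (23.8 to 31.1). The order of the libraries was kept for Timd4, and the 4 shares of Vsig4 still overlapped. In P-LC24 the thinned share rests on 2 cells with Timd4.

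Cd5l encodes AIM, a secreted scavenger protein induced by liver X receptors and known from tissue macrophages of liver, spleen and peritoneum. It was read at 702 CPM in P-LC24 and 718 in P-HC24 at week 24, and at 890 in I-LC32 and 973 in I-HC32 at week 32. It was nearly universal, with a UMI in 1198 of 1214 macrophages and 10 or more in 945. All 75 macrophages of I-LC32 had it, and the lowest share was 88.4% (74.9 to 96.1) in P-LC24, where all 33 cells deep enough to be thinned to 10000 UMIs kept a Cd5l UMI.

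Adgre1 encodes F4/80, the adhesion G protein-coupled receptor used as the general mouse macrophage marker. Its level was 1090 CPM in P-LC24 and 956 in P-HC24 at week 24, then 1307 in I-HC32 and 1275 in I-LC32, and 1202 of the 1214 cells had a UMI. It was also read widely outside the class, since monocyte-like cells had 176 CPM (165 to 186) and a UMI in 70.6% of cells, and their 4 libraries lay between 164 and 185 CPM. Monocyte-like cells had no more than 1 Timd4 UMI among 589 cells, 10 Vsig4 UMIs and 12 Cd5l UMIs, so F4/80 was the 1 member widespread in both classes.

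Marco, a class A scavenger receptor for bacteria and particles, was confined to few cells. Its UMIs in the class numbered 1 in P-LC24 and 2 in I-LC32 against 115 in P-HC24 and 217 in I-HC32, which is 0.907, 0.963, 10.6 and 15.9 CPM. The share of cells with a UMI was close in the 4 libraries, at 2.33%, 2.67%, 2.59% and 4.11%, and it was the UMIs per positive cell that differed, 1 in either low-cholesterol library against 9.58 in P-HC24 and 8.35 in I-HC32. The 10 macrophages with most Marco held 79.1% of its 335 UMIs, and 1 cell had 79. A difference between libraries in Marco therefore rests on few cells, of which the low-cholesterol libraries held 1 and 2.

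Folr2 encodes folate receptor beta, a mark of resident interstitial macrophages and of KCs in many tissues and data sets. Only 23 of the 1214 macrophages had a UMI, 15 of them in P-HC24, 4 in I-HC32, 3 in I-LC32 and 1 in P-LC24. The level was 4.404 CPM in P-HC24 and 4.33 in I-LC32 but 0.366 (0.119 to 0.854) in I-HC32, although I-HC32 had the most macrophages. Over all libraries the Retnla/Cd209a cluster held 163 of 307 Folr2 UMIs, at 4.73 CPM in P-LC24 but 22.9 to 25.6 CPM in the other libraries. By library its part was 68.5% in I-LC32, where 1 cell held 28 UMIs, and 64.6% in I-HC32. At week 24 the macrophage class held 42.1% of the UMIs of P-HC24 against 39.5% in that cluster. B-like cells held 14 of the 25 UMIs of P-LC24 against 6 in that cluster, but with 3112 cells their level was 0.645 CPM. Within that cluster 34 of the 36 Folr2-positive cells also had C1qa, a complement gene of macrophages, and 1 had Cd209a. Of its C1qa-positive cells 33.7% had Folr2, against 0.637% of those without C1qa.

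**Figure D2:**
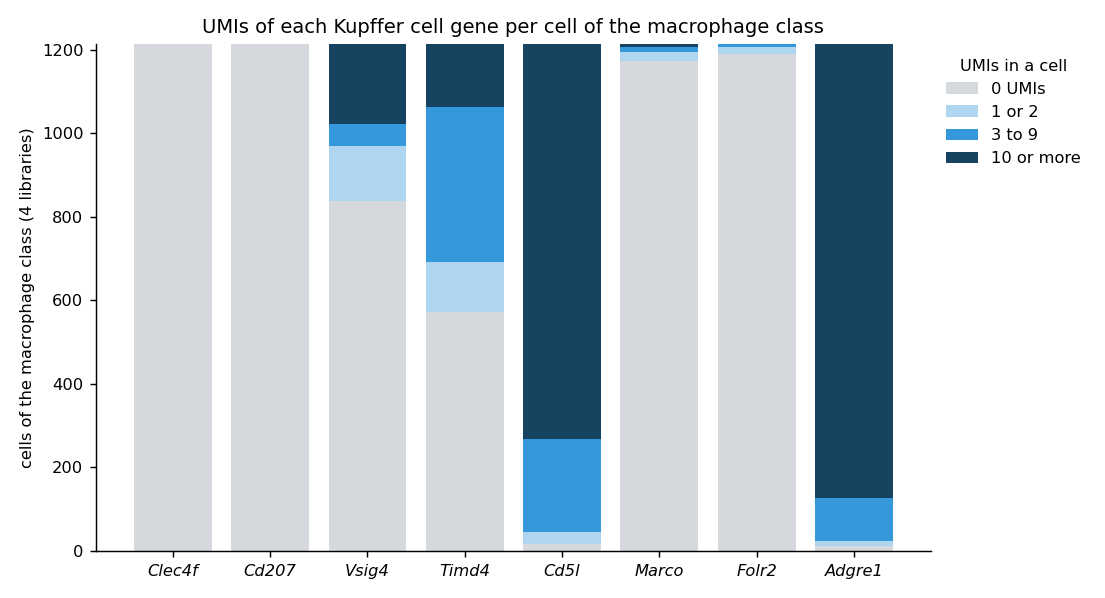
Number of cells of the macrophage class (vertical axis, 1214 cells of 4 libraries) with 0, 1 or 2, 3 to 9, and 10 or more UMIs of each gene (horizontal axis). Cd5l and Adgre1 have 10 or more UMIs in 945 and 1088 cells, Vsig4 and Timd4 are split between cells at 0 and cells with UMIs, and Clec4f and Cd207 are at 0 in every cell.

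Free RNA in droplets can place UMIs in cells that do not express a gene, so the same shares were taken in lymphocytes. T-like cells had a UMI of Vsig4 in 0.1704% of 4694 cells, of Timd4 in 0.0852%, of Cd5l in 1.00%, of Marco in 0.0426%, of Folr2 in 0.192% and of Adgre1 in 1.15%, at median depths of 6267 to 8195 UMIs per library against 20763 to 27172 in macrophages. The shares of Marco (3.38%) and Folr2 (1.89%) in macrophages lay above these, though the depths differ. In T-like cells Adgre1 and Cd5l came in a ratio of 1.07 UMIs, and in macrophages in a ratio of 1.35.

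B-like cells had a higher ratio. They held 2509 Adgre1 UMIs against 271 of Cd5l, a ratio of 9.26, and 8.09% (7.69 to 8.52) of 16853 cells had Adgre1 while 1.52% had Cd5l. By library the ratio was 6.19 to 32.2 in B-like cells and 0.667 to 1.40 in T-like cells. In monocyte-like cells of all libraries it was 94.3. Whether free RNA or RNA of other cells accounts for Adgre1 in B-like cells was not tested. One B-like cluster of 6723 cells with a median of 11818 UMIs held 1993 of these Adgre1 UMIs and had it in 15.5% of its cells, against 2.37% to 5.55% in the other B-like clusters, which were shallower. After thinning each cell to 5000 UMIs, Adgre1 was still present in 3.56% (2.79 to 4.47) of B-like cells in P-LC24 and 4.41% (3.70 to 5.22) in P-HC24, and in 7.08% (6.19 to 8.05) in I-LC32 and 6.41% (5.66 to 7.23) in I-HC32. In the B-like cluster of 6723 cells all 7 B cell markers were detected and 0 were among its 10 leading genes. Its highest marker score was for stromal cells, of which too few markers were detected. Neutrophil-like cells also held 87 Adgre1 UMIs against 2 of Cd5l. Folr2 had 69 UMIs in 45 B-like cells, up to 8 in a cell, which is 22.5% of its UMIs in immune cells. Its level there was 0.466 CPM, against 0.279 in T-like cells and 20.9 in the Retnla/Cd209a cluster.

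The first comparison the study set out is progression (Prog), P-HC24 over P-LC24. In the macrophage class 4 of the 8 genes passed the filter on low counts (at least 100 UMIs over both libraries and a UMI in 10% of the cells of either). Timd4 was 5.29-fold higher in P-HC24 (log2 ratio 2.40, 1.84 to 3.02) and Vsig4 2.45-fold higher (1.29, 0.96 to 1.65). Cd5l stood at a log2 ratio of 0.03 (-0.08 to 0.14) and Adgre1 at -0.19 (-0.28 to -0.10), both inside 1.2-fold, the fold taken for a call. Thus 2 of 4 genes were higher past 1.2-fold and 0 lower, while of 7607 genes passing the filter 20.4% were higher and 37.6% lower, with a median log2 ratio of -0.12. Timd4 stood at percentile 99.8 and Vsig4 at percentile 98.3 among those genes, and Adgre1 at percentile 44.2. P-LC24 held 26 Timd4 UMIs in 6 of its 43 macrophages, with up to 12 in a cell. Its 74 Vsig4 UMIs lay in 12 macrophages, with up to 33 in a cell. These counts set the width of the intervals. Intervals of ratios, here and below, treat each UMI as separate and do not cover differences between cells.

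The other comparison is intervention (Int), I-HC32 over I-LC32, after 8 weeks in which both groups received 0.05% cholesterol. Timd4 was 3.51-fold higher in I-HC32 (log2 ratio 1.81, 1.54 to 2.09) and Vsig4 1.93-fold higher (0.95, 0.76 to 1.14). Cd5l and Adgre1 were again inside 1.2-fold, at 0.13 (0.06 to 0.20) and 0.04 (-0.02 to 0.10). So 2 of 4 genes were higher and 0 lower, against 14% higher and 33.1% lower of 8503 genes with a median of -0.13, and Timd4 and Vsig4 stood at percentiles 99.8 and 98.5. The signs of Cd5l in both comparisons and of Adgre1 in Int turned when mean UMIs per cell were taken without scaling to depth. Those of both genes in Int turned when free RNA was subtracted. Timd4 and Vsig4 stayed positive in both comparisons under all 12 settings tried. Of these settings, a 1.5-fold limit and no filter on low counts cannot change a ratio. Resolutions of 0.2 and 0.8 returned the same numbers of macrophages per library and the same ratios. Ly6c2 and Ccr2 were lower in I-HC32 than in I-LC32, as given above, and their part in the ratios of Int was not tested. Whether Prog and Int differ from each other was not tested.

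**Figure D3:**
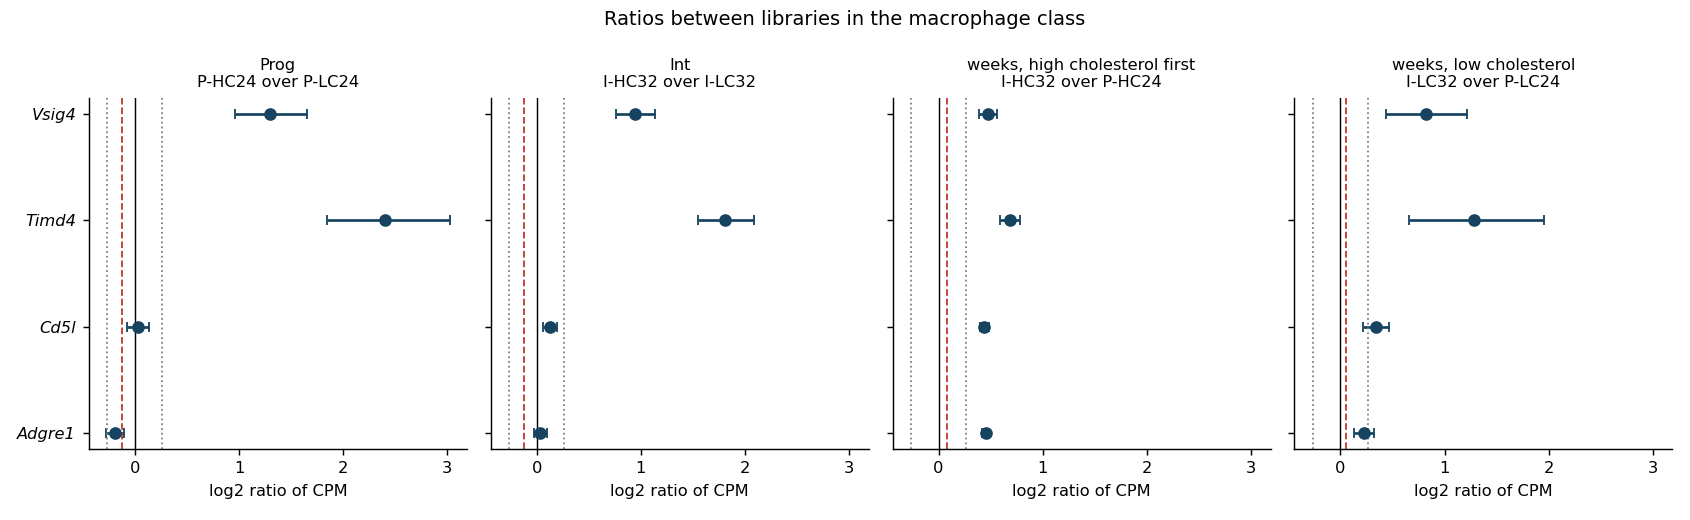
Log2 ratio of CPM (horizontal axis) of the 4 genes that passed the filter on low counts in the macrophage class, with exact 95% intervals for counting error, in 4 comparisons of libraries. The solid line is 0, dotted lines are 1.2-fold, and the dashed line is the median of all genes compared. Timd4 and Vsig4 lie right of 1.2-fold in all 4 comparisons, while Cd5l and Adgre1 lie inside it in Prog and Int (their signs in Int turn with other scaling).

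Between week 24 and week 32, sampled from the same mice, all 4 genes were higher past 1.2-fold in the group that began on high cholesterol (I-HC32 over P-HC24), Timd4 with a log2 ratio of 0.69 (0.59 to 0.78), Vsig4 with 0.47 (0.39 to 0.56), Adgre1 with 0.45 (0.42 to 0.49) and Cd5l with 0.44 (0.40 to 0.48). Of 9011 genes 27.2% were higher and 10.3% lower, with a median of 0.09. In the group on low cholesterol throughout (I-LC32 over P-LC24), Timd4 (1.28, 0.66 to 1.95), Vsig4 (0.82, 0.44 to 1.21) and Cd5l (0.34, 0.22 to 0.47) were higher, Adgre1 at 0.23 (0.13 to 0.33) was inside 1.2-fold, and 29.2% of 4180 genes were higher and 21.4% lower. These comparisons share their libraries with Prog and Int and are not separate evidence.

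Over all immune cells together, which holds both how many macrophages a library has and how much RNA each has, and cannot tell the 2 apart, the ratios were larger. Adgre1 was the 1 member that passed the filter in Prog, 3.33-fold higher in P-HC24 (1.74, 1.67 to 1.81), where 16.1% of 7078 genes were higher and 48.4% lower. In Int, Adgre1 was 3.69-fold higher in I-HC32 (1.88, 1.83 to 1.93) and Cd5l 4.92-fold higher (2.30, 2.23 to 2.36), where 12.4% of 7725 genes were higher and 13.9% lower. Over time, Cd5l (log2 ratio 0.47) and Adgre1 (0.46) were higher in I-HC32 than in P-HC24, where 35.6% of genes were higher and 4.76% lower, and Adgre1 (0.31) was higher in I-LC32 than in P-LC24, where 18.3% were higher and 18.8% lower. These genes passed the filter through the library where they were higher, since Adgre1 was in 14.5% of the immune cells of P-HC24 and 7.17% of those of P-LC24, and Cd5l in 12.1% of those of I-HC32 and 1.67% of those of I-LC32, so their counts over the background are descriptions only. Over time too, Cd5l reached 10% of cells only in I-HC32 and, between the low-cholesterol libraries, Adgre1 only in I-LC32. The other members did not reach 10% of immune cells in any library. Macrophages were 0.902% (0.653 to 1.21) of immune cells in P-LC24 and 1.12% (0.878 to 1.40) in I-LC32 but 7.22% (6.60 to 7.88) in P-HC24 and 9.27% (8.59 to 9.99) in I-HC32, and within the macrophage class the CPM of Cd5l and Adgre1 stayed inside 1.2-fold in both comparisons, whereas by mean UMIs per macrophage Adgre1 was lower past 1.2-fold in both (log2 ratios of -0.32 and -0.32). Among the members with at least 100 UMIs over both libraries, Folr2 alone had a lower level in I-HC32 than in I-LC32. It had 79 UMIs in I-HC32 (1.05 CPM, 0.831 to 1.31) against 89 in I-LC32 (1.54 CPM, 1.24 to 1.89). These intervals overlap, and 1 cell held 28 of the 89 UMIs of I-LC32.

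Vsig4 and Timd4 were then read in the same cells. Both genes were found in 241 macrophages, Vsig4 alone in 135, Timd4 alone in 401 and neither in 437. Timd4 was present in 64.1% of Vsig4-positive cells and 47.9% of Vsig4-negative ones, and the share was higher with Vsig4 in each library, 58.1% against 41.5% in P-HC24, 71.8% against 58.4% in I-HC32, 57.1% against 24.6% in I-LC32 and 16.7% against 12.9% in P-LC24. Across single macrophages the correlation of the 2 genes, on log values of UMIs per 10000, was weak (Pearson's r = 0.16 in 464 cells of P-HC24 and 0.15 in 632 cells of I-HC32, cells of 1 library sharing its depth and free RNA). The largest such value between members was that of Timd4 and Cd5l, 0.36 and 0.24. Depth per cell bears on these shares, since median depth was 22441 UMIs with Vsig4 and 21011 without.

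**Figure D4:**
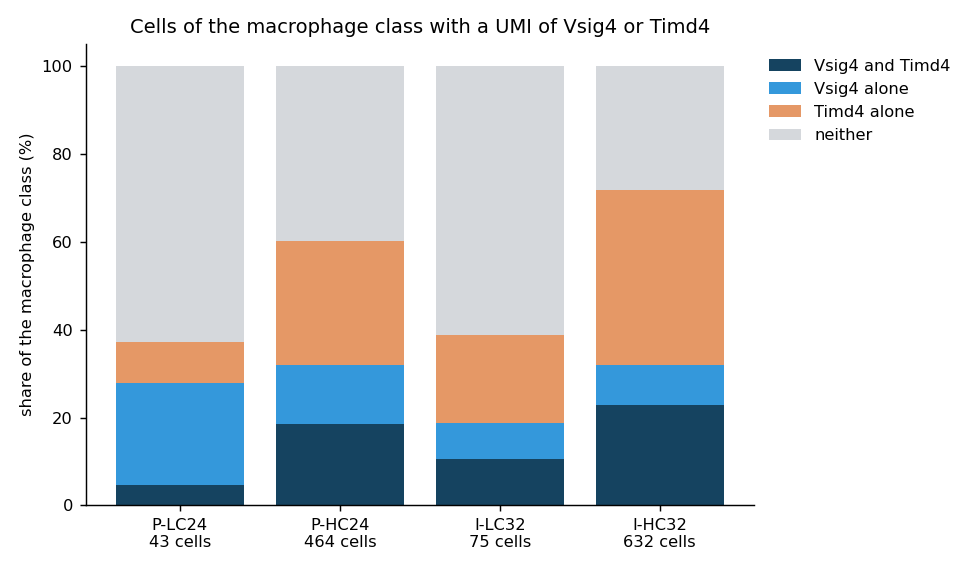
Share of the macrophage class (vertical axis, percent) with at least 1 UMI of both genes, of Vsig4 alone, of Timd4 alone or of neither, in each library (horizontal axis, with the number of macrophages). Timd4, alone or with Vsig4, fills most of the gap between libraries on low cholesterol throughout and libraries begun on high cholesterol. It is in 6 of 43 cells of P-LC24, 217 of 464 of P-HC24, 23 of 75 of I-LC32 and 396 of 632 of I-HC32.

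Macrophages with and without a Timd4 UMI were compared in other genes, as a description with no test. With Timd4, Cxcl13, the chemokine that draws B cells to serous cavities, was read at 961 CPM against 425 without, and it was higher with Timd4 in P-HC24 (811 and 480), I-LC32 (1636 and 272) and I-HC32 (1019 and 473) but not in P-LC24 (11.1 in 6 cells and 57.5 in 37). Ccr2 was at 6.47 CPM with Timd4 and 18.1 without, and Ccr2 was lower with Timd4 in all 4 libraries. Retnla stood at 99.6 and 351 CPM and Top2a, a gene of dividing cells, at 26.0 and 56.2, but in I-LC32 both went the other way (Retnla 329 with Timd4 and 51.7 without, Top2a 51.2 and 28.6). Gata6 was 101 CPM with Timd4 and 87.7 without, so cells of both kinds carried it. Of the members themselves, Vsig4 was 247 CPM with Timd4 and 123 without, and Cd5l 965 and 733. With and without Vsig4, Gata6 stood at 93.4 and 95.2 CPM.

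Of 14 other KC genes, most were found in the macrophage class, few of them widely. A UMI in at least 10% of cells in some library was reached by 8, Clec1b, Fcna, Slc40a1, Hmox1, Id1, Id3, Il18bp and Hpgd, of which Slc40a1 and Hpgd reached it only in P-LC24. Fcna, a ficolin of the lectin complement pathway, was the most widespread, in 89.0% of macrophages, followed by Hmox1, haem oxygenase, in 69.4%. C6, a complement component of KCs, had no UMI in any macrophage, and Slc40a1 (ferroportin), Cdh5 and Kcna2 had one in under 1% of them. Of 6 interstitial macrophage genes, 4 (Mrc1, F13a1, Cbr2 and Ccl24) reached the limit, Mrc1 and Cbr2 only in the 43 cells of P-LC24, so that 2 remained without that library, with Ccl24 in 94.6% of cells, while Lyve1 had 5 UMIs and Gas6 2.

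Of the 14 KC genes, 5 could be compared between libraries in the macrophage class. The others had too few UMIs over both libraries. In P-LC24 and P-HC24, Clec1b stood at 24.5 and 3.76 CPM, Slc40a1 at 15.4 and 0.642 and Hpgd at 10.9 and 1.10. Cdh5, Cd163 and Nr1h3 were also lower in P-HC24, while Spic was higher (0 and 0.459 CPM). C6 and Kcna2 had no UMI in either. Those lower in P-HC24 were also lower in I-HC32 than in I-LC32, all on few UMIs. In Prog, 4 of 5 were higher past 1.2-fold and 0 lower (median log2 ratio 0.74, beside 20.4% higher and 37.6% lower of all genes), Fcna at 0.52, Id1 at 1.22, Id3 at 2.38 and Il18bp at 0.74, with Hmox1 at -0.16. The P-LC24 macrophages held only 8 UMIs of Id1, 11 of Id3 and 13 of Il18bp. Id1 passed the filter through P-HC24, where it was higher (11.4% of cells against 9.30% in P-LC24). Its place in these counts is a description only. In Int, 3 of 5 were higher and 0 lower (median 0.33, beside 14% and 33.1%), Hmox1 at 0.43, Id3 at 1.00 and Il18bp at 0.33, with Fcna at 0.21 and Id1 at -0.04. Among the 15 peritoneal macrophage markers, 3 were higher and 7 lower in Prog (median -0.18) and 6 higher and 0 lower in Int (median 0.24), and the Prog counts lie near the same background shares. Among 8 pan-macrophage genes, 5 were higher and 2 lower in Prog (median 0.36), and 5 higher and 0 lower in Int (median 0.36). In Int every log2 ratio of the 15 peritoneal and 8 pan-macrophage genes was above 0, beside 14% higher and 33.1% lower of all genes. Macrophage genes beyond the members were thus lower in I-LC32, and how this bears on Timd4 and Vsig4 in Int was not tested. The medians over all genes were -0.12 and -0.13. Gata6 itself stood at -0.14 and 0.13.

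Barcodes that did hold Clec4f or Cd207 were counted 1 by 1. Of 33198 barcodes before any filter, 12 had a UMI of either gene (4 from P-LC24, 2 from I-LC32, 1 from P-HC24 and 5 from I-HC32), together 58 UMIs of Clec4f and 18 of Cd207, and 3 had both. None was in the macrophage class, 3 were in the Retnla/Cd209a cluster, 5 were B-like, 1 was erythroid-like and 3 had been removed by filters. Timd4 and Gata6 had no UMI in any of the 12. A single I-HC32 barcode of 20243 UMIs held 41 of the 58 Clec4f UMIs with 9 of Cd207, 35 of Vsig4, 48 of Cd5l, 29 of Adgre1 and 5 of Folr2. It also held UMIs of 13 of the 14 other KC genes, among them 11 of Clec1b and 17 of Spic, the factor of iron-recycling macrophages, and it had been removed by its doublet rank. The next, a P-LC24 barcode of 11115 UMIs, held 4 of Clec4f, 3 of Cd207, 12 of Vsig4, 33 of Cd5l and 48 of Adgre1, with 7 of the 14 genes, and lay in the Retnla/Cd209a cluster. Of the 5 B-like barcodes, 3 held 1 Clec4f UMI each beside 18 to 61 UMIs of Cd79a, a B cell gene. The other two had no Cd79a UMI and go against the name of their cluster, an I-LC32 barcode of 500 UMIs with 2 of Clec4f, 3 of Vsig4, 2 of Cd5l and 1 of C1qa, and a P-HC24 barcode of 1150 UMIs with 2 of Cd207 and 8 of C1qa.

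KC-type barcodes were then sought without the 8 genes, as those with a UMI of at least 7 of the 14 other KC genes, a limit chosen after values had been seen. There were 15 in 33198 barcodes, or 0.0452%, 11 of them in the Retnla/Cd209a cluster, 2 in the macrophage class and 2 removed by filters. Leaving out 1 with Gata6 left 14, of which 6 came from P-LC24, 4 from I-HC32 and 2 from each other library. All 14 had Adgre1, 11 had Cd5l, 8 had Vsig4, 6 had Folr2, 3 had Cd207 and 2 had Clec4f. None had Timd4 or Marco, although 14 barcodes allow a share of up to 21.4%. The 1 barcode left out, from P-HC24, held 8 UMIs of Timd4 beside 4 of Gata6. It was the only Timd4-positive barcode of the 15, so the absence of Timd4 follows from leaving it out. In the macrophage class the shares were 52.9% for Timd4 and 3.38% for Marco. With at least 5 of the 14 genes and no Gata6 the set grew to 52 barcodes, in which Clec4f was in 4 and Timd4 in 6.

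**Figure D5:**
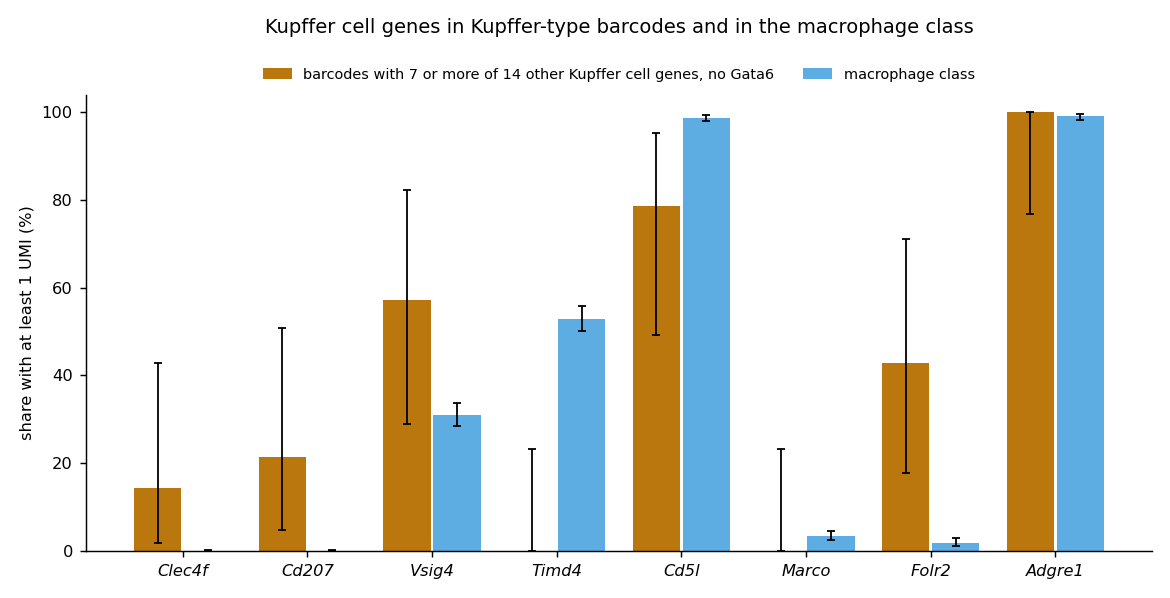
Share with at least 1 UMI of each gene (vertical axis, percent) in the 14 barcodes with 7 or more of 14 other Kupffer cell genes and no Gata6, and in the 1214 cells of the macrophage class, with exact 95% intervals for counting error. Timd4 is in none of the 14 barcodes and in 52.9% of the macrophage class. The 1 barcode left out for its Gata6 UMIs did hold Timd4. Clec4f and Cd207 are in 2 and 3 of the 14 barcodes and in no cell of that class.

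Outside the macrophage class, Timd4 had a small second location. The Retnla/Cd209a cluster held 105 of its UMIs in 24 cells, in 10.3% (5.06 to 18.1) of its cells in P-HC24 and 4.00% to 4.62% in the other libraries. Of these 24 cells 15 had Flt3, a growth factor receptor of dendritic cells, 10 had Cd209a and 4 had C1qa, where 183, 166 and 101 of all 415 cells of the cluster had these genes, so the counts partly restate the cluster's make-up. One I-LC32 cell with 27 Timd4 UMIs had Gata6 as well. In that cluster C1qa was in 7 of the 8 Vsig4-positive cells and 23 of the 33 Cd5l-positive cells. By UMIs, C1qa-positive cells held 118 of 120 of Vsig4, 526 of 544 of Cd5l and 35 of 105 of Timd4. Single cells weigh on these sums, since 1 I-LC32 cell held 61 UMIs of Vsig4 and 187 of Cd5l.

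Genes whose levels followed those of a member most closely were sought over 29 sums of a class and a library with at least 50 cells, among 14998 genes. These sums share libraries and are dominated by the gap between macrophages and lymphocytes, so the values are descriptions. Timd4 was followed by Fcna (Pearson's r = 0.96) and Wtip (0.95), and Cd5l by Gm38832 and Sult1a1 (both 0.95). Vsig4 came closest to Acy3, F7 and Aspa (all 0.94), and Marco to AU017674 (0.94), Prss35 and Col16a1 (both 0.90). For Folr2 the nearest were Mgl2 (0.95), Ank2 (0.93) and Fcrls (0.92), and for Adgre1 Apoe (0.95), Grn (0.93) and Vill (0.92). Clec4f and Cd207 had fewer than 100 UMIs and were not matched.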

How the data were processed

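The deposited matrices hold unnormalized UMI counts for barcodes called as cells, which the authors made with Cell Ranger 9.0.1 on GRCm39 per the labels and the study's methods. Values were whole numbers, and no normalization, ambient RNA correction or cell filter had been applied to them. From these counts, cells under 500 UMIs, under 300 genes or with mitochondrial UMIs above 10% were removed. Doublets were removed by Scrublet rank (scanpy 1.11.5, 0.8% per 1000 cells). Genes in fewer than 3 cells were left out of doublet scoring and clustering only, and levels and ratios used all genes. Each library was normalized with sctransform 0.4.2, the 8 members were left out of the 3000 variable genes, and 30 components were integrated by Harmony steps written out for this work and tested on simulated data, then clustered with Seurat 5.3.0 at resolution 0.4 in R 4.3.3. The remaining steps ran in Python 3.11.15 (pandas 2.3.3, scipy 1.17.1, numpy 2.4.6), with matplotlib 3.10.9 for plots. SoupX needs droplets not used here and was replaced by a subtraction of free RNA as an alternative.

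Each cluster took the type with the highest mean marker score among those with at least 3 listed markers detected in 25% of cells. The 10 leading genes were consulted only for clusters of low depth. The B-like clusters of 6723 and 631 cells scored highest as stromal and mesothelial, types with too few detected markers. For each class UMIs were summed and compared as CPM, with exact Poisson intervals, shares of cells with exact Clopper-Pearson intervals, and a share of 0 with the limit of 3 counts. The interval step was tested on simulated data. All members were named. Of other lists, genes in at least 10% of the macrophage class in some library or in none were named, with the 3 genes nearest to each member with at least 100 UMIs by correlation of log2(CPM + 1), the 10 leading genes of the macrophage class and each barcode with Clec4f or Cd207. Some genes that this rule names are not reported here. Genes of the Timd4 split, of Retnla/Cd209a cells and KC genes in under 1% of cells were named after their values were seen. The members, lists and marker sets were chosen with earlier results of these data known. Libraries were matched to conditions by diet and week in the labels. Levels of different genes are not compared as amounts of RNA, since 3′ UMIs were counted and capture differs between genes. Positions and promoters come from the GENCODE annotation and sequence of GRCm39. Alternatives concerned the mitochondrial limit, doublets, resolution, integration, a gate in place of clusters, scaling, fold, the filter on low counts, free RNA and thinning.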

Additional observations from a re-analysis of the deposited data

Results flagged for a closer look

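Barcodes that the filters removed from I-HC32 held 45 Clec4f UMIs, against 1 in the kept cells of that library and 0 in its macrophage class, and the sum lies above the limit of 3 counts. Of these, 41 came from 1 barcode removed by its doublet rank and 4 from 1 barcode with 10.1% mitochondrial UMIs. The same removed barcodes held 10 Cd207 UMIs, 9 and 1, with 3 in the kept cells. Neither value was compared between conditions, and whether the first barcode is 1 cell or 2 was not tested. Its UMIs of Cd79a numbered 1.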

How the results depend on the processing

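Each condition is 1 library, so no value carries an error between mice, and P-LC24 with 43 and I-LC32 with 75 macrophages limit every ratio. No paired analysis was possible because each condition has 1 library, and no replicate could be left out. Names of classes were rebuilt from markers, and 35 to 55 cells of P-LC24 fell in the macrophage class under other mitochondrial limits. Of the recomputed counts and shares over the members 78 stayed within the range set for them and 14 moved. Of the other recomputed values, log2 ratios of members and the number of KC-type barcodes, 93 stayed and 25 moved. With a mitochondrial limit of 5%, 2 members in place of 1 were higher in Prog over all immune cells, and the macrophage class held 93.2% of the members' UMIs. It held 91.4% with doublets kept, 92.0% with macrophages gated by peritoneal markers instead of clusters, and 83.7% of the UMIs of every deposited barcode, a denominator chosen after seeing the data. With mean UMIs per cell in place of CPM, 1 member was lower past 1.2-fold in the macrophage class in Prog and 1 in Int, where Adgre1 had log2 ratios of -0.32 and -0.32 and Cd5l of -0.09 and -0.23. Without the filter on low counts, 4 members were higher in Prog in the macrophage class and 1 lower in Int, and over all immune cells 6 were higher and 2 lower in both comparisons. Taking a limit of 5% in place of 1% of cells, 4 members were near-absent from macrophages. With free RNA subtracted, the Int ratios of Cd5l and Adgre1 became -0.00 and -0.09. The estimate of free RNA was 2.31% to 13.2% by library and highest in I-LC32. Timd4 in Int was 1.54 with the gate and 1.45 with mean UMIs per cell, beside 1.81 in the main setting. Vsig4 in Int was 0.59 with mean UMIs per cell and 1.14 with a mitochondrial limit of 5%, beside 0.95 in the main setting. The KC-type set grew from 15 to 52 barcodes at 5 genes without Gata6, also chosen after seeing the data. The cause of these shifts was not tested.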
